A study of Mus musculus with 14 samples.

Results

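The genes described here are the growth factors of the VEGF and angiopoietin families, with their receptors, in wounded mouse fibroblasts. They are 10 genes chosen by symbol from the 43472 genes of both deposited tables: the ligands Vegfa, Vegfb, Vegfc and Pgf, the receptors Flt1, Nrp1 and Nrp2, and the secreted factors Angpt1, Angptl2 and Angptl4. All 10 were listed in both tables, and all 10 had a mean normalised count of at least 10 in replicates 2 to 4, the limit for the test.

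Primary fibroblasts were taken from the tail tips of C57BL/6 mice, grown in serum-containing medium, scratched to open a wound in the dish, and either left as they were (Untreated) or given autologous micrograft (AMG-treated), an extract of mechanically disrupted mouse skin that the methods describe as freed of cells and that was added to the medium at a dilution. The series holds 14 RNA libraries. Replicate 1 gave 1 Untreated and 1 AMG-treated library at 1, 5, 12 and 24 h, and replicates 2, 3 and 4 gave 3 further libraries of each group at 5 h. The labels call the 5 h samples biological replicates, but they give no age or sex of the animals and do not say what a replicate number shares or what the Untreated wells received in place of the extract.

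VEGF family ligands are secreted dimers that bind receptor tyrosine kinases on endothelial cells. Vegfa binds both Flt1 and Kdr, and Kdr carries most of its signal for vessel growth, whereas Vegfb and Pgf bind Flt1, and Vegfc and Vegfd bind Flt4, the receptor of lymphatic endothelium. Nrp1 and Nrp2 are co-receptors for VEGF ligands and for class 3 semaphorins. Angpt1 is the activating ligand of the endothelial receptor Tek and steadies mature vessels, while Angptl2 and Angptl4 resemble angiopoietins but do not bind Tek. In a healing wound, fibroblasts are one of the sources of these factors.

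Between 12545537 and 34696529 reads per library were assigned to genes. Deposited values were normalised counts, that is, reads per gene divided by a size factor for the library, and the 2 tables (replicate 1, and replicates 2 to 4) were scaled separately. Levels of replicate 1 were therefore not set against those of the other replicates except as RPM, that is, reads scaled to the library total. The labelled cell type was checked against its markers: the 10 fibroblast markers summed to 620554 to 981943 normalised counts in the Untreated and 496927 to 711181 in the AMG-treated libraries of replicates 2 to 4, against 104 to 372 and 191 to 347 for 11 endothelial markers. In these libraries macrophage and leukocyte markers (10 genes) summed to 173 to 1440 and 228 to 1323, mural cell markers (6 genes) to 4710 to 9190 and 3975 to 7731, and keratinocyte markers (6 genes, with Krt5, Krt14 and Krt1 at 0) to 146 to 282 and 92.6 to 144. In replicate 1, over its 4 times, the fibroblast list summed to 345530 to 523978 and 251618 to 391957, the endothelial list to 191 to 246 and 144 to 251, the macrophage and leukocyte list to 1184 to 2103 and 391 to 1325, the mural list to 1640 to 4629 and 937 to 5968, and the keratinocyte list to 264 to 737 and 253 to 403. In replicate 1, ribosomal protein genes took 7.00% of the reads of the Untreated 5 h library and 5.10% of the AMG-treated 1 h library, against 2.27% to 3.47% in the other 12 libraries. In these bulk samples, fewer cells of a type cannot be told apart from less RNA per cell.

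Of the windows just upstream of the members' transcription starts, 3 are shown, those of the members with a RefSeq entry that were higher with AMG in every replicate at 5 h. Each is the 250 bases before the start, on the strand of the gene, from RefSeq on build GRCm38.p6. Capitals mark the GC box GGGCGG or its reverse complement CCGCCC, the letters bound by Sp1-type factors. The Vegfa window lies at chr17:46032378-46032627 on the minus strand, upstream of the gene at chr17:46016993-46032369. The Flt1 window lies at chr5:147726012-147726261 on the minus strand, upstream of the gene at chr5:147561604-147726011. The Vegfc window lies at chr8:54077282-54077531 on the plus strand, upstream of the gene at chr8:54077606-54187096.
Vegfa: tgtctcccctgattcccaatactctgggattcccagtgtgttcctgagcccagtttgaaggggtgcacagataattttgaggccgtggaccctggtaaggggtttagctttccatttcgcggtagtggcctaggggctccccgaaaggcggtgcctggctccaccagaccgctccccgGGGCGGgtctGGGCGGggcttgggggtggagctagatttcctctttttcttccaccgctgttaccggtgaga
Flt1: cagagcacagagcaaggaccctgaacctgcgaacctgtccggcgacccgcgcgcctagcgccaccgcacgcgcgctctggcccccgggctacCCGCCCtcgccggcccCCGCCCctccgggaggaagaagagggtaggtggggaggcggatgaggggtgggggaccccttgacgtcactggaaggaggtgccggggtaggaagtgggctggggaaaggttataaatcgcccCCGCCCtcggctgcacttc
Vegfc: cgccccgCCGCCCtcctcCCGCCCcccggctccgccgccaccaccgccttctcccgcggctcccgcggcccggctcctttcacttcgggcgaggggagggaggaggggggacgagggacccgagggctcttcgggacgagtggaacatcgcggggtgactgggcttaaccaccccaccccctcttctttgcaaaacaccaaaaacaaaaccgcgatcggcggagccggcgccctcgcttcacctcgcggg

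RefSeq entries were found for 8 of the 10 members, with 10 windows in all (Vegfa and Pgf had a second start), and Angptl4 and Angpt1 had none. A GC box was found in at least 1 window of 8 of these 8 members (the second Pgf window had none), against 32.7% of all 32851 windows of the same length. Here and for the motifs below, members are counted by gene and the background by window, so the shares are not like for like. The members' windows were 59.2% to 76.4% G and C, against a median of 52.4%. The AP-1 letters TGANTCA were found in 0 of the 8 members and in 6.75% of all windows, and the NF-kB motif in 0 and in 1.41%. The HIF core letters GCGTG were found in 6 members (Flt1, Nrp1, Nrp2, Pgf, Vegfa and Vegfb) against 28.2% of windows, and ACGTG in Vegfa alone, against 16.6%. For Vegfa both lay only in the window of its second start, chr17:46025164-46025413, which is inside the gene. The Vegfa window shown above held neither. By the annotated gene positions, the Nrp1 window and both Pgf windows also lay inside their genes. The Nrp2 window overlapped the start of its gene. The NRF2 letters TGACNNNGC were found in Angptl2, Pgf and Vegfc, against 10.2% of windows. All motifs were searched on both strands and none was counted as a binding site.

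The first question was which of these genes differed between AMG-treated and Untreated wounded fibroblasts at 5 h. Vegfa and Angptl4 rose, by 2.91-fold and 9.73-fold in the means of 3 libraries. Flt1 and Vegfc were higher in every treated library than in any untreated one, by 5.10-fold and 2.73-fold, but did not pass this test, and passed with the replicate number as a block. Angpt1 was the member with the largest lower estimate, 2.37-fold lower with AMG. Vegfb, Pgf and Angptl2 passed neither with nor without the replicate block. The test was limma on log2(normalised count + 1) of replicates 2 to 4, over 13096 genes, with a Benjamini-Hochberg adjusted p under 0.05 as the threshold. It passed 2 of the 10 members as higher, where it passed 0.97% of all genes as higher, and 0 members as lower, where it passed 0.267%. At an unadjusted p under 0.05 there were 4 members, and 23.1% of all genes. With the replicate number as a block, 4 members passed as higher (17.9% of all genes did) and 3 as lower (19.3% of all genes did). With edgeR on 4 replicates per group and a term for the table, Vegfa, Flt1 and Angptl4 passed as higher (adjusted p 0.00726, 0.0148 and 0.0110), where 1.37% of all genes did, and 0 members as lower, where 0.389% did (1.76% in either direction). With edgeR on all 4 replicates and a replicate block, the same 3 and Vegfc passed as higher (2.49% of all genes did) and 0 members as lower (1.29% did, and 3.78% in either direction). The median log2 fold change was 0.29 over the members and -0.018 over all genes tested.

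**Figure D1:**
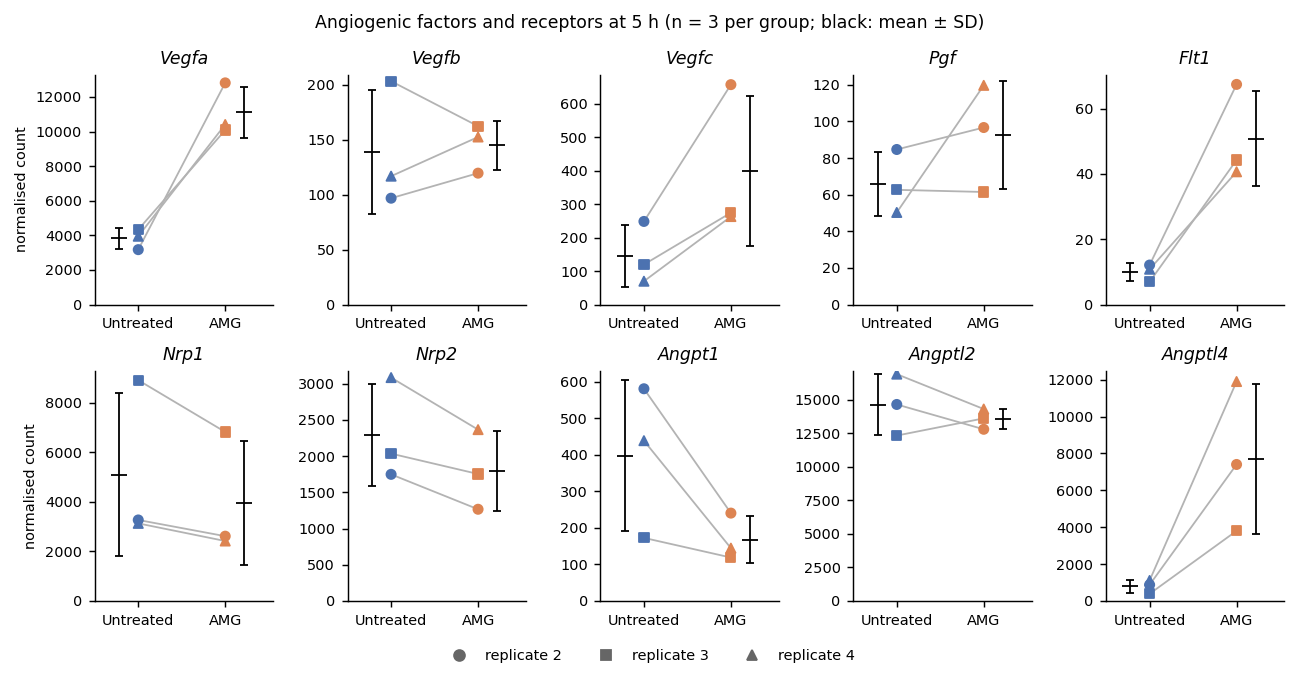
Normalised counts of the 10 genes at 5 h in replicates 2, 3 and 4 (vertical axes, starting at 0), with grey lines joining libraries of the same replicate number and black marks giving the mean ± SD of 3 libraries. Vegfa, Vegfc, Flt1 and Angptl4 lie higher in all 3 AMG-treated libraries than in any Untreated library, and the other 6 genes overlap between the groups.

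Vegfa encodes VEGF-A, the principal growth factor for blood vessels. Its normalised counts were 3173, 4335 and 3947 in Untreated replicates 2, 3 and 4, and 12812, 10085 and 10405 in the AMG-treated replicates. The groups did not overlap, and the lowest treated library was above the highest untreated one in a gene counted with at least 2885 reads per library. The means were 3818 ± 591 (SD, n = 3) and 11100 ± 1491 (SD, n = 3), a log2 fold change of 1.54 (SE 0.17) with a limma adjusted p of 0.0190. The call was lost when Untreated replicate 2 (adjusted p 0.0928), Untreated replicate 4 (0.0869), AMG-treated replicate 2 (0.124) or AMG-treated replicate 4 (0.107) was left out, with log2 fold changes of 1.42 to 1.64 over all such fits. Counts per gene cannot separate the splice forms of Vegfa. The study picked Vegfa and Flt1 as angiogenesis genes from calls on these samples, so their direction is not independent evidence.

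Angptl4 encodes a secreted inhibitor of lipoprotein lipase that also acts on vessels, and it is a known target of both hypoxia and PPAR signalling. The gene lies at chr17:33773750-33781830 on the minus strand. It was counted at 877, 387 and 1110 in the Untreated and at 7402, 3802 and 11899 in the AMG-treated libraries. Every treated library was above every untreated one, and replicate 3 was the lowest in both groups. The means were 791 ± 369 (SD, n = 3) and 7701 ± 4057 (SD, n = 3), a log2 fold change of 3.26 (SE 0.51) with a limma adjusted p of 0.0414. The same fold change had an SE of 0.097 once replicate numbers were blocked. Left-out libraries moved its adjusted p to 0.0107 without AMG-treated replicate 3 and to 0.0631 to 0.200 without any other library, so that 5 of these 6 fits lost the call. It was also lost, with an unchanged direction, by edgeR on the recovered reads (adjusted p 0.0512) and by limma without a trend (0.0767).

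Flt1 encodes the receptor of Vegfa, Vegfb and Pgf, which binds its ligands tightly and signals weakly, and which is also made as a soluble trap that gene counts do not separate. The normalised counts were 12.1, 6.96 and 10.8 in the Untreated and 67.4, 44.3 and 40.7 in the AMG-treated libraries. These stood for 5 to 20 and 36 to 54 reads, so counting error is large in the Untreated group, yet the groups did not overlap. The log2 fold change was 2.24 (SE 0.41), with a limma adjusted p of 0.0582. It passed with the replicate block (adjusted p 0.00188), with DESeq2 (0.000541), with edgeR on 4 replicates per group (0.0148), with limma without a trend (0.0437) and without AMG-treated replicate 3 (0.0307). Endothelial cells and monocytes are the usual sources of this transcript. Of the 11 endothelial markers 3 had enough counts to be tested and 0 passed. With the block Esam passed as higher and Tek as lower, against 17.9% and 19.3% of all genes. In the same libraries Emcn and Cldn5 had 0 counts, Pecam1 lay between 1.62 and 4.52, Cdh5 between 0 and 14.7, Egfl7 between 30.8 and 66.4 and Tek between 0 and 226. In replicate 1 at 5 h, Cdh5 went from 0 to 18 reads and Cldn5 from 0 to 12 reads, in libraries of 13818438 (Untreated) and 27410213 (AMG-treated) reads. In that pair Tek went from 32 to 19 reads and Kdr had 0 in both. The whole endothelial list summed to 246 normalised counts in the Untreated and 251 in the AMG-treated library. The macrophage and leukocyte list had 0 of 7 tested genes past the threshold in either fit. The endothelial junction gene Esam was 45.9 ± 7.60 (SD, n = 3) against 149 ± 37.2 (SD, n = 3) with AMG (adjusted p 0.0514, and 0.000892 with the block). The part of the endothelial list in the Flt1 result was not tested.

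Vegfc encodes the main growth factor of lymphatic vessels. It was counted at 249, 120 and 69.8 in the Untreated and at 658, 275 and 263 in the AMG-treated libraries. The groups did not overlap, though replicate 2 was above replicates 3 and 4 in both. The log2 fold change was 1.50 (SE 0.54), with a limma adjusted p of 0.170 and, with the replicate block, 0.000423. DESeq2 did not pass it (0.0660).

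The groups did not overlap for 4 of the 10 members (Vegfa, Vegfc, Flt1 and Angptl4), against 28.7% of all genes tested. The ratio of treated to untreated with the same replicate number was above 1 in all 4 replicates, replicate 1 included, for the same 4 members, against 15.7% of all genes. It was below 1 in all 4 for 1 member, Angpt1, against 15.9%. These log2 ratios were 1.79, 2.01, 1.22 and 1.40 for Vegfa in replicates 1 to 4, and 3.76, 3.08, 3.29 and 3.42 for Angptl4. They were 2.17, 2.39, 2.51 and 1.82 for Flt1, and 0.87, 1.40, 1.19 and 1.90 for Vegfc.

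**Figure D2:**
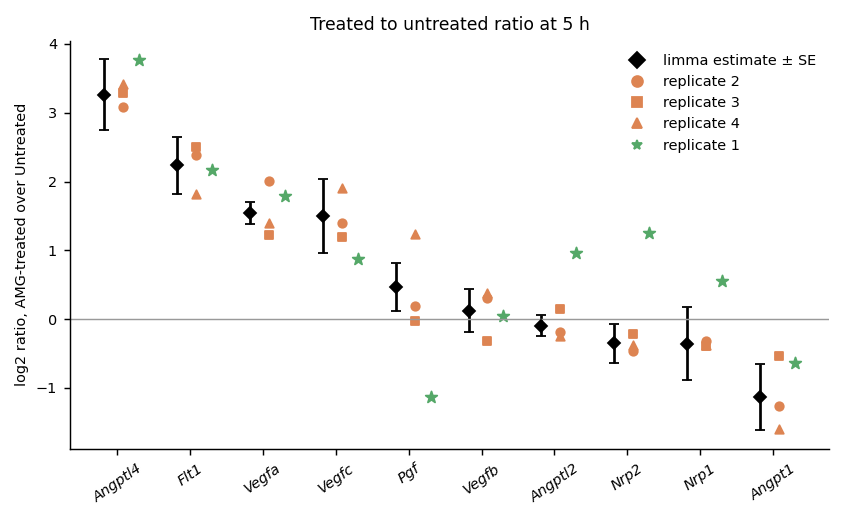
Log2 ratio of AMG-treated to Untreated at 5 h for each gene (vertical axis), ordered by the limma estimate of replicates 2 to 4 (black, ± SE), beside the ratio within each replicate number. All 4 ratios are above 0 for Angptl4, Flt1, Vegfa and Vegfc and below 0 for Angpt1, whereas replicate 1 lies opposite to replicates 2 to 4 for Nrp1 and Nrp2.

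Angpt1, at chr15:42424723-42676977 on the minus strand, was counted at 581, 173 and 439 in the Untreated and at 240, 119 and 145 in the AMG-treated libraries. The groups overlapped, because Untreated replicate 3 lay below AMG-treated replicate 2. The means were 397 ± 207 (SD, n = 3) and 168 ± 64.1 (SD, n = 3), a log2 fold change of -1.13 (SE 0.48) with a limma adjusted p of 0.221, and of 0.00317 with the replicate block. With edgeR on all 4 replicates and a block it was 0.0639. Within replicate numbers the log2 ratios were -0.64, -1.27, -0.53 and -1.59 in replicates 1 to 4. Its exons share bases with the antisense gene Gm17473, which reached at most 2.78 normalised counts in any library.

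The co-receptors Nrp1 (chr8:128358604-128503363, plus strand) and Nrp2 (chr1:62703285-62818695, plus strand) were lower with AMG in replicates 2 to 4. Nrp1 was counted at 3266, 8903 and 3128 in the Untreated and at 2612, 6814 and 2417 in the AMG-treated libraries. Replicate 3 was the highest library in each group, and the spread within a group was larger than the difference. Nrp2 was counted at 1748, 2034 and 3084, and at 1266, 1753 and 2365. The log2 fold changes were -0.36 (SE 0.53) and -0.35 (SE 0.29), with limma adjusted p of 0.720 and 0.486. With the replicate block both passed (0.00993 and 0.0162), and with edgeR on all 4 replicates and a block neither did (0.794 and 0.958). A correction for transcript length, added after the data were seen, left neither past the threshold with the block (0.238 and 0.448). In replicate 1 at 5 h the log2 ratios were of the other sign, 0.55 for Nrp1 and 1.26 for Nrp2, and 0.10 and 0.72 after the length correction. That Untreated library is the one with 7.00% of its reads from ribosomal protein genes, and the part of this in the replicate 1 ratios was not tested.

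Vegfb (chr19:6982473-6987651, minus strand), Pgf (chr12:85166635-85177790, minus strand) and Angptl2 (chr2:33216069-33247717, plus strand) passed in neither fit. Vegfb, a ligand of Flt1 with a role in lipid handling, was counted at 96.8 to 203 in the Untreated and 120 to 162 in the AMG-treated libraries (log2 fold change 0.12, SE 0.31, limma adjusted p 0.848). Pgf, which competes with Vegfa for Flt1, was counted at 50.3 to 84.7 and 61.5 to 120 (0.47, SE 0.34, 0.442). Angptl2, an inflammatory factor of adipose tissue and skin, had the highest count of the members in the Untreated libraries, at 12316 to 16891 and 12785 to 14293 (-0.10, SE 0.16, 0.741). For Pgf the ratio within replicate numbers ran from -1.14 in replicate 1 to 1.23 in replicate 4 on the log2 scale, so its direction differed between replicates.

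Levels of different genes were compared per length as RPKM, that is, reads scaled to exon length and to the library total, with exon lengths from GENCODE M21. In Untreated cells at 5 h, Angptl2 stood at 128 ± 15.6 (SD, n = 3), above Vegfa at 49.4 ± 8.35, Nrp1 at 29.2 ± 19.8, Angptl4 at 12.2 ± 5.39 and Nrp2 at 10.6 ± 2.91. Below these came Vegfb at 4.83, Angpt1 at 4.20, Vegfc at 3.32, Pgf at 1.26 and Flt1 at 0.0407. The libraries of neighbours overlapped for Vegfa and Nrp1, for Angptl4 and Nrp2, and from Vegfb down to Pgf. In AMG-treated cells Vegfa was first, at 138 ± 19.7 (SD, n = 3), without overlap with Angptl2 at 115 ± 5.57, and Angptl4, at 114 ± 55.5, overlapped Angptl2. Nrp1 followed at 21.9, Vegfc at 8.72, Nrp2 at 8.05, Vegfb at 4.82, Angpt1 at 1.72, Pgf at 1.69 and Flt1 at 0.201, with overlap between Nrp1 and Vegfc, Vegfc and Nrp2, and Angpt1 and Pgf. Flt1 was thus the lowest of the 10 in both groups.

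Ratios between members were also taken within each library, with 1 added to every normalised count. The log2 ratio of Angptl4 to Angptl2 was -4.32 ± 0.58 (SD, n = 3) in the Untreated against -0.96 ± 0.80 (SD, n = 3) in the AMG-treated libraries, that of Flt1 to Nrp1 was -8.71 ± 1.23 against -6.12 ± 1.01, and that of Vegfa to Vegfb was 4.83 ± 0.37 against 6.25 ± 0.42. Each of these had a two-sided exact permutation p of 0.10, the smallest that 3 against 3 libraries allow, and an adjusted p of 0.133 over the 4 ratios. The log2 ratio of Vegfa to Vegfc was 4.88 ± 1.10 (SD, n = 3) against 4.92 ± 0.56 (SD, n = 3), a difference of 0.046 (exact permutation p 0.80).

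The second question was how the difference ran over time, which replicate 1 answers with 1 library per group and hour and no test. In brackets are 95% exact (Clopper-Pearson) intervals, which cover counting error only. Vegfa was at its highest at 1 h in both groups. In the order 1, 5, 12 and 24 h, its normalised counts were 11350, 2801, 1933 and 2354 in the Untreated and 24729, 9656, 5862 and 5981 in the AMG-treated libraries. The treated to untreated log2 ratio was 1.12 [1.09, 1.16], 1.79 [1.71, 1.86], 1.60 [1.53, 1.67] and 1.34 [1.28, 1.41]. The treated library was thus above the untreated one at all 4 times, while both levels were lower from 5 h on.

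Angptl4 took another course. It stayed between 302 and 729 in the Untreated libraries, and stood at 2893, 4106, 4269 and 5851 in the AMG-treated libraries. The log2 ratio was 2.04 [1.92, 2.17], 3.76 [3.55, 3.99], 3.72 [3.58, 3.87] and 3.00 [2.91, 3.10]. The treated level was highest at the last time, unlike that of Vegfa.

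Flt1 had a single high point in the treated libraries, with 123, 225, 72.4 and 39.6 normalised counts over the 4 times, against 72.1, 49.2, 35.1 and 46.7 in the Untreated libraries. The log2 ratio was 0.77 [0.30, 1.25], 2.17 [1.65, 2.79], 1.02 [0.50, 1.60] and -0.23 [-0.83, 0.34], so that at 24 h no difference was detectable at this depth. After the length correction these ratios of Flt1 were 1.21, 1.58, 0.87 and -0.06, with a smaller rise from 1 to 5 h. Vegfc was at 357, 390, 286 and 226 in the Untreated libraries and at 454, 716, 785 and 706 with AMG. Its ratio was 0.35 [0.12, 0.57], 0.87 [0.67, 1.09], 1.45 [1.28, 1.63] and 1.64 [1.45, 1.84], with overlapping intervals at 12 and 24 h, and 0.026, 1.25, 1.56 and 1.53 after the length correction.

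Angpt1 diverged in the opposite direction. Its Untreated level was 1026, 734, 1091 and 2630, and its treated level 1069, 472, 334 and 676. The log2 ratio was 0.06 [-0.083, 0.20] at 1 h and then -0.64 [-0.82, -0.46], -1.70 [-1.88, -1.54] and -1.96 [-2.08, -1.85]. At 24 h the untreated library held 3.89-fold more than the treated one.

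Pgf was at 105, 152, 30.0 and 14.6 in the Untreated and at 181, 68.9, 14.3 and 11.7 in the AMG-treated libraries, lower at 12 and 24 h than at 1 h in both. Its log2 ratio was 0.78 [0.40, 1.18], -1.14 [-1.58, -0.71], -1.02 [-2.03, -0.19] and -0.29 [-1.45, 0.78]. Nrp2 was at 3421, 1144, 3082 and 4513 in the Untreated and at 2351, 2736, 4571 and 5598 in the AMG-treated libraries, the Untreated 5 h library being the lowest. The log2 ratio of Nrp1 was -0.36, 0.55, 0.10 and -0.47, that of Angptl2 -0.46, 0.96, 0.33 and 0.18, and that of Vegfb 0.19, 0.04, -0.50 and 0.01 at the 4 times.

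At 1, 5, 12 and 24 h, the log2 ratio was above 1 for 2, 4, 4 and 3 of the 10 members, against 11.3%, 13.3%, 5.93% and 6.05% of 13498 genes. It was below -1 for 0, 1, 2 and 1 members, against 10.7%, 12.6%, 6.9% and 8.05%. Vegfa and Angptl4 were above 1 at all 4 times. In the same order of times, the macrophage and leukocyte list summed to 1463, 2103, 1223 and 1184 in the Untreated and to 1325, 552, 535 and 391 in the AMG-treated libraries. The fibroblast list summed to 523978, 345530, 436710 and 484750, and to 366364, 391957, 317158 and 251618. Mural markers summed to 4629, 1875, 1640 and 1926, and to 2763, 5968, 1373 and 937. Their part in the ratios of replicate 1 was not tested.

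**Figure D3:**
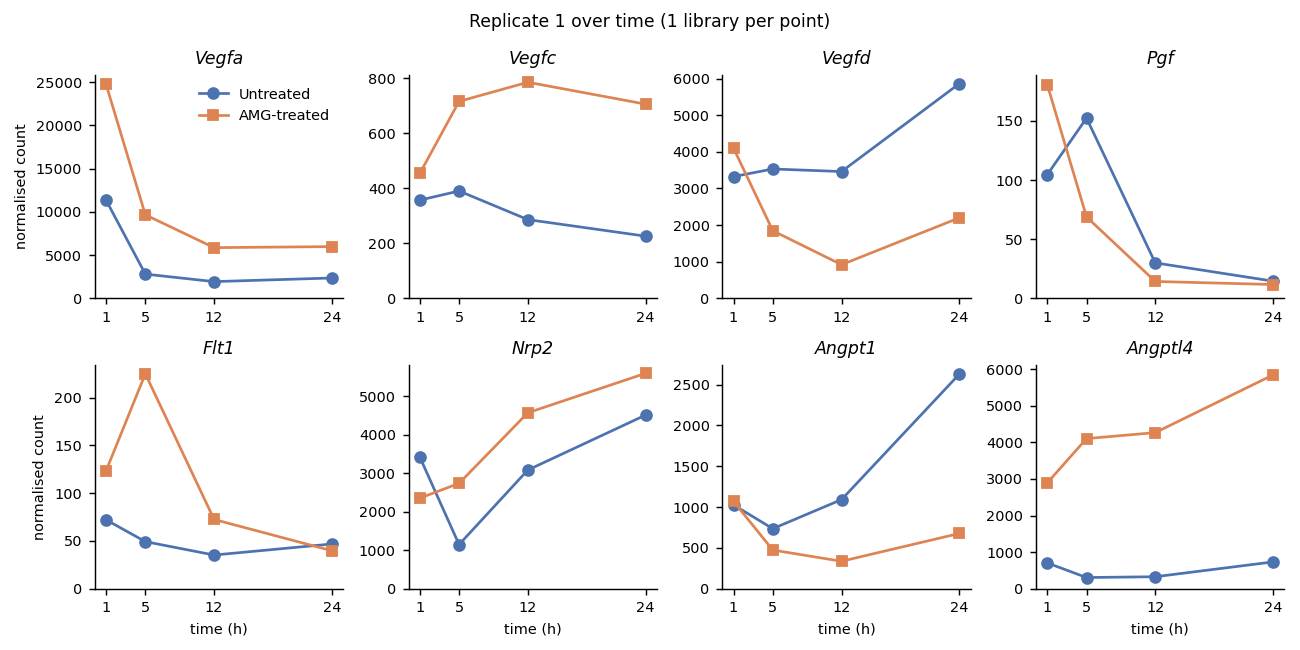
Normalised counts in replicate 1 (vertical axes, starting at 0) against time in hours for Untreated (circles) and AMG-treated (squares) cells, with 1 library per point. Vegfa is highest at 1 h in both groups, Angptl4 and Vegfc are higher with AMG at all 4 times, and Angpt1 and Vegfd are lower with AMG from 5 h on.

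Of the 3 VEGF ligand and receptor genes outside the members, Kdr, the main signalling receptor of Vegfa, had too few counts to be tested, with 0 to 6.96 normalised counts per library at 5 h. Flt4 was 113 ± 27.0 (SD, n = 3) against 144 ± 33.8 (SD, n = 3) with AMG (limma adjusted p 0.496). In replicate 1, with 1 library per group and hour, its log2 ratio was -1.21, 1.52, 1.34 and 1.45 at 1, 5, 12 and 24 h. Vegfd, named Figf in the tables, was counted at 871, 1060 and 334 in the Untreated and at 584, 673 and 258 in the AMG-treated libraries. Each pair was lower with AMG although the groups overlapped, and the log2 fold change was -0.53 (SE 0.52), with an adjusted p of 0.566, or 0.00713 with the block and 0.0739 with edgeR on all 4 replicates and a block. In replicate 1 the log2 ratio of Vegfd was 0.30, -0.94, -1.91 and -1.41 over the 4 times.

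Per length, Vegfd was above Vegfb, Vegfc and Pgf in all Untreated libraries. Of the reads per base over the ligands Vegfa, Vegfb, Vegfc, Pgf and Vegfd, Vegfa took 57.3%, 61.4% and 78.2% in the Untreated and 82.8%, 82.1% and 87.4% in the AMG-treated libraries at 5 h. Every treated share was above every untreated share. Vegfd took 28.0%, 26.7% and 11.8%, against 6.72%, 9.75% and 3.85%. In replicate 1 at 5 h Vegfa took 26.6% [25.4, 27.8] in the Untreated and 65.0% [64.1, 65.8] in the AMG-treated library (95% exact binomial intervals, counting error only), and at 24 h 16.8% [16.2, 17.4] and 50.1% [49.1, 51.1]. Vegfd took 74.6% and 32.8% at 24 h.

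**Figure D4:**
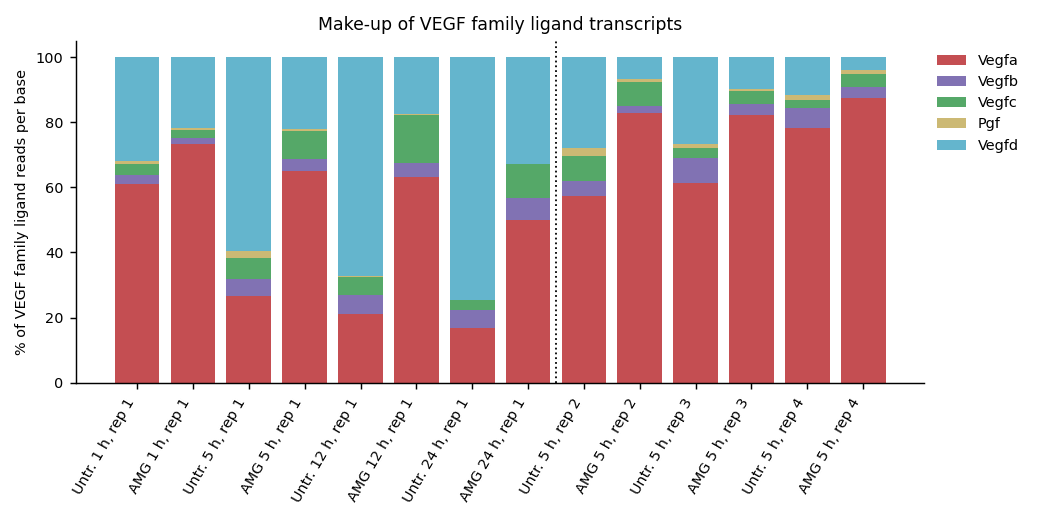
Share of each of 5 VEGF family ligands in the reads per base of exon of all of them (vertical axis, percent), in each library, with replicate 1 to the left of the dotted line and replicates 2 to 4 at 5 h to the right. In each pair of libraries of 1 replicate and hour the Vegfa share is larger in the AMG-treated library and the Vegfd share is smaller.

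The other genes of the pathway were read from lists by role. Of all 13096 genes tested, 6338 were higher with AMG and 6758 lower. Beside each count with the block stand the shares of all genes that passed with it, 17.9% as higher and 19.3% as lower, and the outcome with edgeR on all 4 replicates and a block. Signs of replicate 1 at 5 h are given without the length correction. It turned Sema3a (-0.04), Sema3c (-0.28), Arnt (-0.09), Col1a2 (-0.17), Col3a1 (-0.18) and Pdgfra (-0.01) to lower there. It turned Adm (0.24), Plin2 (0.02), Serpinf1 (0.37) and Lum (0.15) to higher. Others kept their sign, as Plxna1 did (0.60). The partners of the neuropilins, class 3 semaphorins and plexins, had 10 of 12 tested genes lower with AMG, with a median log2 fold change of -0.39. At the adjusted threshold 0 of them passed (1.24% of all genes did), with 4 at an unadjusted p under 0.05 (23.1% of all genes). With the block 7 passed as lower, against 19.3% of all genes. These 7 were the guidance factors Sema3a (-0.97, SE 0.40), Sema3c (-0.37), Sema3d (-1.35) and Sema3f (-0.42), and the receptors Plxna1 (-0.83), Plxna2 (-1.35) and Plxna3 (-0.58). Sema3d and Plxna2 were also lower in replicate 1 at 5 h and the other 5 were higher there, and 0 of the 7 passed with edgeR on all 4 replicates and a block (adjusted p 0.0713 to 0.677). Sema3a, a repellent for axons and endothelial cells that acts through Nrp1, was counted at 3282, 2506 and 6596 in the Untreated and at 1382, 1864 and 2780 in the AMG-treated libraries.

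The angiopoietin axis outside the members had 4 of 8 genes with enough counts, and 0 passed. With the block, Angpt4 passed as higher (0.41) and Tek (-2.08) and Angptl7 (-0.48) as lower, against 17.9% and 19.3% of all genes. In replicate 1 at 5 h Angptl7 had the other sign, and 0 of the 3 passed with edgeR on all 4 replicates and a block (adjusted p 0.197, 0.0940 and 0.332). Tek, the receptor of Angpt1, was counted at 17.6, 226 and 8.65 in the Untreated and at 3.82, 110 and 0 in the AMG-treated libraries, so nearly all of its signal came from replicate 3, the replicate in which Nrp1 was also highest.

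The HIF system, which senses oxygen, had 7 of 8 genes tested, 5 of them higher. Egln3, a prolyl hydroxylase that marks HIF proteins for degradation and is itself induced by them, passed as higher, from 119 ± 22.8 (SD, n = 3) to 681 ± 309 (SD, n = 3), a log2 fold change of 2.39 (SE 0.40) with a limma adjusted p of 0.0496 that ran from 1.19e-07 to 0.219 over its alternatives. With the block, Egln1 (0.30), Egln3 and Vhl (0.60), which all act to limit HIF, passed as higher (17.9% of all genes did), and the HIF subunits Epas1 (-0.59) and Arnt (-0.35) as lower (19.3% did). Of these 5, Egln3 alone had the same sign in replicate 1 at 5 h, and it alone passed with edgeR on all 4 replicates and a block (adjusted p 0.00630). Among 10 hypoxia targets 7 were higher and 0 passed. With the block 3 passed as higher, against 17.9% of all genes: the glucose transporter Slc2a1 (1.14), the vasodilator peptide gene Adm (0.79) and Ndrg1 (1.63). Slc2a1 and Ndrg1 were also higher in replicate 1 at 5 h and passed with edgeR on all 4 replicates and a block (adjusted p 0.0226 and 0.0145), and Adm did neither (0.310). The glycolytic genes Pgk1 (0.13) and Ldha (0.24) and the mitophagy gene Bnip3 (-0.018) passed in neither fit.

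PPAR targets, lipid genes that share a regulator with Angptl4, had 8 of 10 genes tested, 5 of them higher, and 0 passed. With the block 4 passed as higher, Pdk4 (0.82), Plin2 (0.51), Fabp4 (0.57) and Slc25a20 (0.33), against 17.9% of all genes. Of these 4, Pdk4 was also higher in replicate 1 at 5 h, and 0 passed with edgeR on all 4 replicates and a block (adjusted p 0.0871 to 0.762). The list labelled inhibitors of angiogenesis had 8 genes, and Vash2 among them is not an established inhibitor. Of the 8, 6 were lower, with a median of -0.43, and 0 passed. With the block Thbs1 (-1.27), Thbs2 (-0.61), Vash2 (-0.98) and Adamts1 (-1.08) passed as lower, and Serpinf1 (0.30) and Col18a1 (0.92), whose product is the source of endostatin, as higher, against 19.3% and 17.9% of all genes. Thbs2 and Serpinf1 had the other sign in replicate 1 at 5 h, and Col18a1 alone of the 6 passed with edgeR on all 4 replicates and a block (adjusted p 0.0210). In that replicate 1 pair Thbs1 and Adamts1 hardly differed, with log2 ratios of -0.022 and -0.068, and Vash2 stood at -0.52. Thbs1, which encodes thrombospondin-1, was counted at 311396, 267598 and 411454 in the Untreated and at 104110, 171478 and 137906 in the AMG-treated libraries, without overlap (adjusted p 0.0898, and 0.00180 with the block). In the same libraries 9 of 10 fibroblast markers were lower, 7 of them past the threshold with the block (19.3% of all genes were) and 0 without it, at a median of -0.50. Of these 7, 2 were also lower in replicate 1 at 5 h, and 0 passed with edgeR on all 4 replicates and a block. Their part in the other lists was not tested.

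**Figure D5:**
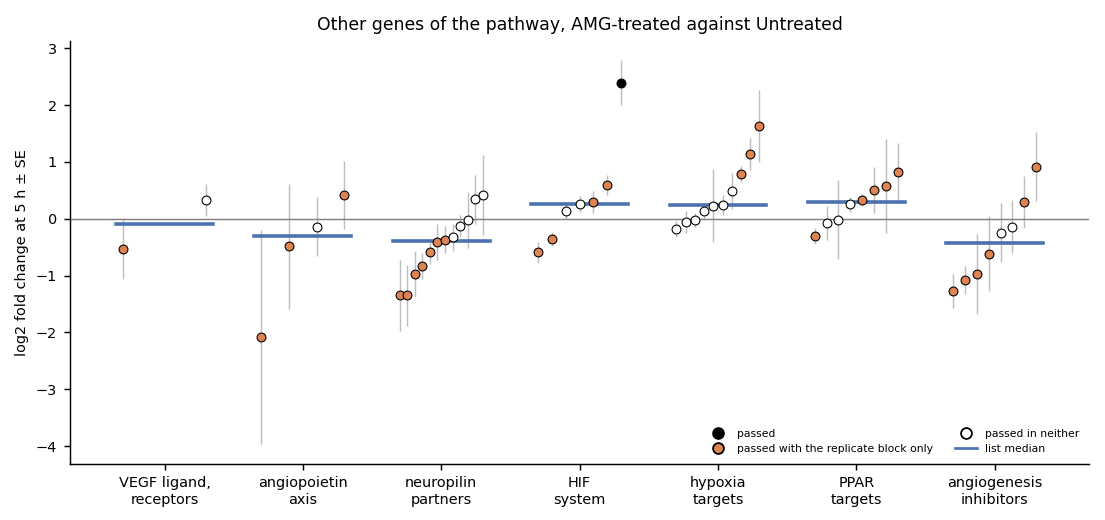
Log2 fold change at 5 h (vertical axis, ± SE, replicates 2 to 4) of each tested gene in 7 lists, with list medians as blue lines. Egln3 alone passed without the replicate block (black). Below 0 lie 10 of 12 neuropilin partners and 6 of 8 genes listed as angiogenesis inhibitors. Of all 13096 genes tested, 6758 were lower.

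Over all 14 libraries, the genes whose levels were most like that of Vegfa were Spsb1 (Pearson r 0.97), Pvr (0.96) and Errfi1 (0.95), among 12843 genes compared. Those most like Angptl4 were Egln3 (0.98), Lrrc8d (0.97) and Mmp1b (0.96). The points share their treatment, culture and table, so the values are descriptions. Among the members themselves, Vegfa and Flt1 (r 0.76), Angptl4 and Vegfc (0.73) and Angptl4 and Flt1 (0.72) were the most alike, and Pgf and Nrp2 (-0.76) the most opposed.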

How the data were processed

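Stranded poly(A) libraries of 14 samples were sequenced by the authors as single-end reads, and per the labels and methods the reads were checked with FastQC 0.11.5, aligned to mm10 with TopHat2 2.0.13, handled with SAMtools 0.1.19.24 and counted per gene with HTSeq 0.5.3p3. The deposited values are a signal per gene, namely read counts that the authors divided by a DESeq size factor, in 2 tables scaled separately. Which annotation release and strand setting the counting used is not given in the sources used here. In every library 100% of values were whole multiples of 1 read within a tolerance of 0.1, and reads were recovered for count tests. Totals were 12545537 to 34696529 reads, and 3 reads corresponded to 1.62 to 5.22 normalised counts.

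Groups and replicate numbers came from the sample titles. AMG-treated and Untreated libraries of replicates 2 to 4 were compared with limma 3.58.1 in R 4.3.3 (trend) on log2(value + 1) over 13096 genes with a mean of at least 10, with Benjamini-Hochberg adjustment over all of them, so fold changes of low genes are understated. The methods name DESeq and state no block. Across genes, same-numbered libraries deviated from their groups together, at r = 0.65, 0.76 and 0.70 (-0.59 to 0.12 for other pairs). The labels give no reason for this. The replicate block and the ratios within replicate numbers took same-numbered libraries as pairs. The main fit and the exact permutation tests did not. Values with the replicate block are given where they change a call. Replicate 1 was described by log2((treated + 1)/(untreated + 1)). Alternatives were other pseudocounts, filters and scalings, edgeR 4.0.16 and DESeq2 1.42.0 on recovered reads, edgeR on all 4 replicates, each library left out, and a lowess correction for exon length added after the data were seen. The limma, edgeR and DESeq2 steps were tested on simulated data. Reads carry no molecular identifiers, so intervals and floors cover counting error only. Positions are from GENCODE M21 on GRCm38 (mm10) and promoter windows from RefSeq on GRCm38.p6. The members and the gene lists were chosen with earlier results of these data known. All members are named, and genes of the other lists only where they passed with or without the block or bear on a receptor's detection. Some list genes named beside these (Pgk1, Ldha, Bnip3 and Flt4) passed in neither fit and were chosen after their values were seen. A result for 1 gene of the lists is not reported here.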

Additional observations from a re-analysis of the deposited data

Results flagged for a closer look

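Of 20 groups of 4 libraries at 5 h (10 genes in each of 2 groups, as RPM, that is, reads scaled to the library total), 3 had a library far from the other 3 by Dixon's criterion, where chance gives about 1 in 20. Flt1 stood at 2.17 RPM in Untreated replicate 1, against 0.399 to 0.674 in Untreated replicates 2 to 4, and AMG-treated replicate 1 was also above its group, at 10.6 against 2.07 to 3.63. Nrp1 stood at 510 (509.7) RPM in Untreated replicate 3, against 147 to 182 in the other Untreated libraries, and AMG-treated replicate 3 was also the highest of its group, at 380 (379.5). Angptl2 stood at 1119 RPM in AMG-treated replicate 1, against 688 to 757 in AMG-treated replicates 2 to 4. The libraries of replicate 1 and of replicates 2 to 4 come from tables made separately, and the part of this in the Flt1 and Angptl2 values was not tested.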

How the results depend on the processing

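Vegfa passed under 16 of 20 alternatives, Angptl4 under 13 of 20, Flt1 under 8 of 19, Vegfc under 4, Angpt1 under 3 and Nrp1 and Nrp2 under 2 each, and Vegfa, Angptl4, Flt1, Vegfc, Pgf and Angpt1 kept their direction under all of theirs. The members passing as higher were 2, and 4 with the replicate block, 4 with edgeR and a replicate block, 4 with edgeR on all 4 replicates and a replicate block, 4 with length correction and block, 1 with edgeR, and 0 to 3 with each library left out. Those passing as lower were 0, and 3 with the block, 3 with edgeR and block and 1 with length correction and block, and were 0 with edgeR on all 4 replicates and a block. Over all genes, 127 passed as higher and 35 as lower. With the replicate block these were 2345 and 2527, with edgeR and block 2416 and 2436, with length correction and block 2257 and 2009, with edgeR on all 4 replicates and block 326 and 169, with DESeq2 854 and 580, without a trend 56 higher, and with each library left out 1 to 1146 higher and 0 to 1054 lower (both maxima without AMG-treated replicate 3). The Vegfa to Vegfc difference ran from -0.559 to 0.507 with each library left out: it turned to -0.559 without Untreated replicate 2, to -0.0882 without AMG-treated replicate 3 and to -0.141 without AMG-treated replicate 4. Small differences changed sign: Vegfb to -0.13 (length correction, with or without block) and -0.10 (without Untreated replicate 2), Nrp1 to 0.13 (without Untreated replicate 3), Nrp2 to 0.044 and 0.043 (edgeR on all 4 replicates, without and with block), and Angptl2 to 0.16 and 0.17 (the same fits), 0.015 (length correction, with or without block) and 0.013 (without Untreated replicate 4). So did Angpt4 (-0.076 without Untreated replicate 3), Angptl7 (0.17 without Untreated replicate 4, 0.50 without AMG-treated replicate 3), Fabp4 (-0.24 without AMG-treated replicate 2) and Serpinf1 (-0.16 without Untreated replicate 4). In replicate 1 the length correction turned Nrp1 at 1 h to 0.014 and at 12 h to -0.0041, and Vegfb from 0.19 to -0.48 at 1 h and from 0.008 to -0.18 at 24 h. It moved Vegfb at 5 h from 0.04 to 0.70, Flt1 at 1 h from 0.77 to 1.21 and Flt1 at 5 h from 2.17 to 1.58. With each library left out the log2 fold change ran from -0.10 to 0.43 for Vegfb, -0.84 to 0.13 for Nrp1, -0.22 to 0.013 for Angptl2, -0.076 to 0.98 for Angpt4, -1.51 to 0.50 for Angptl7, -0.24 to 1.26 for Fabp4 and -0.16 to 0.66 for Serpinf1. The causes of these changes were not tested. Leaving out a library keeps 2 in its group. Depth limits Flt1 most, at 5 to 20 reads in the Untreated libraries.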
